A study of Mus musculus with 5 samples.

Results

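The 10 genes that make, break down, carry and sense retinoic acid were followed through 5 single-cell RNA libraries of mice. The members, taken by their symbols from the 32285 genes of the count tables, were the synthesizing enzymes Aldh1a1, Aldh1a2 and Aldh1a3, the degrading enzymes Cyp26a1 and Cyp26b1, the receptors Rara, Rarb and Rarg, and the binding proteins Crabp1 and Crabp2. All 10 had at least 1 UMI (unique molecular identifier, a tag that marks 1 captured transcript) in every library. There were 3 libraries of penis at postnatal day 6, from male mice, and 1 library each of forelimb and hindlimb at embryonic day 15, which pooled limbs of several male embryos. The labels give C57BL/6N as the genotype of every library and name no other allele and no treatment, while the study's methods name C57BL/6J, and which substrain was used was not tested. By the study's methods the prepuce was removed, so the penis libraries hold mainly glans, and the mice came from more than 1 litter. The labels do not tie a penis library to an animal, and the limb libraries may share embryos, so p-values measure the spread between these libraries, which may be technical. Tissue, age and preparation changed together between penis and limb and cannot be told apart.

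Retinoic acid is made from vitamin A: retinol is oxidized to retinaldehyde, and the ALDH1A enzymes oxidize retinaldehyde to retinoic acid. The CYP26 enzymes oxidize retinoic acid further and so remove it, and CRABP1 and CRABP2 bind it in the cytoplasm. The nuclear receptors RARA, RARB and RARG bind it and act on DNA as partners of RXR proteins. In the limb bud, CYP26B1 is known to keep the distal tissue low in retinoic acid, and in cartilage retinoid receptors, RARG among them, are known to act on chondrocyte maturation.

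In GRCm38 (mm10), with positions from GENCODE, all 10 are protein-coding genes. Aldh1a1 lies at chr19:20492715-20643465 on the plus strand, Aldh1a2 at chr9:71215789-71296243 on the plus strand and Aldh1a3 at chr7:66390890-66427517 on the minus strand. Cyp26a1 lies at chr19:37697798-37701536 on the plus strand and Cyp26b1 at chr6:84571414-84593908 on the minus strand. Rara lies at chr11:98927818-98974942 on the plus strand, Rarb at chr14:16430839-16819156 on the minus strand and Rarg at chr15:102234938-102257517 on the minus strand. Crabp1 lies at chr9:54764748-54773110 on the plus strand and Crabp2 at chr3:87948666-87953376 on the plus strand. Crabp1 and Aldh1a2 thus share chromosome 9, and Aldh1a1 and Cyp26a1 share chromosome 19.

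Receptor dimers of RAR and RXR are known to bind direct repeats of a 6-base half-site, classically with 5 bases between the copies. RefSeq promoter windows of GRCm38.p6, 300 bases each (250 before a transcription start and 50 after it), were searched on both strands for pairs of half-sites, in any combination (the form AGGTCA, the form AGTTCA, the form GGGTCA and the form GGTTCA), separated by 5 bases of any kind. For 8 of the members 13 windows were found, and 2 of these held such a repeat, compared with 32 of 32851 windows of all genes (0.0974%). Aldh1a3 and Crabp2 had no window and were not searched. The repeats were in windows of Rarb and Cyp26a1. They are shown because they are the only members' windows with these letters, each with 60 bases on either side and the half-sites in capitals. The Rarb stretch is chr14:16575453-16575589, minus strand, with the repeat from 53 to 37 bases before the start. The Cyp26a1 stretch is chr19:37697716-37697852, plus strand, with the repeat on the opposite strand, from 32 to 16 bases before the start. Read along its own strand, the Cyp26a1 repeat is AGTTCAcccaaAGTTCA. A match of letters is a description and not a measured binding site.
Rarb: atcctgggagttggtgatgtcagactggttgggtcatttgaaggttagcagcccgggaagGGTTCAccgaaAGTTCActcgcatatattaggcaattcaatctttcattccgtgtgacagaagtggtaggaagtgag
Cyp26a1: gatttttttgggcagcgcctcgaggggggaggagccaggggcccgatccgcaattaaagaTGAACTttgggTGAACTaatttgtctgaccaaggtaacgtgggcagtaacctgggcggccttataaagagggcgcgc

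Cells were assigned by marker genes, none of them a member: a cell passed a gate when it had a UMI of at least 3 or 4 of the listed markers of a type. Between 5708 and 7085 cells per penis library and 22057 and 20514 cells in the forelimb and hindlimb passed the quality limits, with median totals of 8792 to 9909 and of 5358 to 6057 UMIs per cell. The mesenchyme gate held 3249 to 3978 cells per penis library and 10336 and 9529 limb cells. Mesenchyme cells passed no other gate, while mural, chondrocyte and tendon-gated cells could pass the mesenchyme gate too. Of all cells, 10.4 to 21.4% passed no gate and 4.82 to 5.67% passed 2 that were not allowed together, and both were left out. Libraries shared 9 to 124 cell barcodes pairwise. Levels are given as CPM, UMIs of a gene per 1000000 UMIs of all genes, summed over the cells of a type in a library, and triplets of values are penis replicates 1, 2 and 3. Markers bore out the gates for mesenchyme, epithelium, endothelium, Schwann and myeloid cells. Mesenchyme markers in mesenchyme summed to 6268 to 6351 CPM in penis and 4208 to 4312 CPM in limb. Of these markers Dcn (3899 to 4004 and 1452 to 1595 CPM), Fbln1 and Prrx1 were higher in penis. Twist1 (226 to 239 and 473 to 500 CPM), Twist2 and Lum were lower. The part of this in the penis-limb differences of mesenchyme was not tested. Epithelium still carried mesenchyme markers at a summed 535 to 593 CPM in penis and 556 to 563 CPM in limb. Endothelium held these at 116 to 143 CPM and 144 to 147 CPM. In limb epithelium mural markers summed to 322 to 414 CPM and chondrocyte markers to 97.9 to 103 CPM. In penis epithelium these were 92.1 to 116 CPM and 16.7 to 22.7 CPM. The part of this in the epithelial values was not tested. Markers bore out the other gates less: cells gated as mural carried the mesenchyme markers at a summed 5300 to 6259 CPM in penis and 3806 to 4142 CPM in limb, above their mural markers (1766 to 2240 and 839 to 937 CPM). Penis cells gated as chondrocytes had chondrocyte markers at a summed 1572 to 1940 CPM, compared with 11319 to 12429 CPM in limb, and Matn1, a cartilage matrix gene, at 0 to 1.49 CPM. Their mesenchyme markers summed to 2359 to 2860 CPM, compared with 1544 to 1636 CPM in limb, their mural markers to 314 to 422 CPM, compared with 95.2 to 143 CPM, and their tendon markers to 332 to 496 CPM, compared with 133 to 187 CPM. The part of this in the penis-limb differences of chondrocyte-gated cells was not tested. Tendon-gated penis cells had mesenchyme markers at a summed 5991 to 6435 CPM and tendon markers at 1230 to 1499 CPM, compared with 2777 to 3030 CPM and 1779 to 1923 CPM in limb, and the part of this in their penis-limb differences was not tested. These 3 are therefore called mural-gated, chondrocyte-gated and tendon-gated cells.

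In mesenchyme, RNA of all 3 synthesizing enzymes was higher in penis than in limb. Aldh1a3 stood at 127, 122 and 132 CPM in the penis libraries, compared with 19.4 CPM in the forelimb and 16.9 CPM in the hindlimb. All 3 penis libraries lay far above both limb libraries. The log2 fold change, penis over limb, was 2.78 ± 0.08 (SE, adjusted p = 1.7e-08) in edgeR's quasi-likelihood test. Aldh1a1 was at 16.8, 17.7 and 21.3 CPM in penis mesenchyme, compared with 2.13 CPM in the forelimb and 1.59 CPM in the hindlimb, a log2 fold change of 3.29 ± 0.15 (SE, adjusted p = 2.0e-07). Aldh1a2 was at 26.6, 29.4 and 28.1 CPM, compared with 11.2 CPM in the forelimb and 13.8 CPM in the hindlimb, a log2 fold change of 1.14 ± 0.09 (SE, adjusted p = 6.5e-06). For none of the 3 enzymes did the mesenchyme of penis and limb overlap. Thinned to 2000 UMIs per cell so that depth was equal, 20.2, 19.7 and 20.9% of penis mesenchyme cells had an Aldh1a3 UMI, compared with 2.85% for forelimb and 2.43% for hindlimb (unthinned 54.4, 53.2 and 54.2%, and 7.64% for forelimb and 6.71% for hindlimb). In myeloid cells, taken as a background, the thinned share was 0.403, 1.45 and 1.29% in penis, with median totals of 6439.5 to 7814 UMIs per cell, compared with 9197 to 10392 in mesenchyme.

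The 3 enzymes differed in where else they were found. Aldh1a3 was the one with a level in Schwann cells, the glia of peripheral nerves: 52.8, 42.5 and 32.9 CPM in penis, compared with 52.1 CPM in the forelimb and 61.5 CPM in the hindlimb. Penis and limb Schwann cells overlapped, and the log2 difference of -0.35 ± 0.21 (SE, adjusted p = 0.21) did not pass the test. In the limb the Schwann cells were the type with the highest Aldh1a3, above mesenchyme without overlap, while in penis they stood below mesenchyme by 1.51 ± 0.13 (SE, adjusted p = 4.3e-10) on the log2 scale. Aldh1a1 was highest in tendon-gated cells of penis, at 60.05, 52.3 and 53.4 CPM, compared with 5.75 CPM in the forelimb and 6.81 CPM in the hindlimb. Their log2 fold change was 3.16 ± 0.17 (SE, adjusted p = 4.0e-09). In chondrocyte-gated cells Aldh1a1 was at 34.2, 28.3 and 40.5 CPM in penis and at 0.294 CPM in the forelimb and 0.880 CPM in the hindlimb, a log2 fold change of 5.70 ± 0.35 (SE, adjusted p = 2.5e-08). The limb values there rest on few UMIs. Aldh1a2 had its highest levels in mesenchyme and mural-gated cells. In penis epithelium it was at 11.8, 14.2 and 9.69 CPM, compared with 2.25 CPM in the forelimb and 0 CPM in the hindlimb. That difference was called (log2 fold change 3.52 ± 0.71 SE, adjusted p = 9.9e-04), but without the hindlimb library it was 2.39 (adjusted p = 0.025) and with DESeq2 3.58 (adjusted p = 0.019), and no longer passed.

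**Figure D1:**
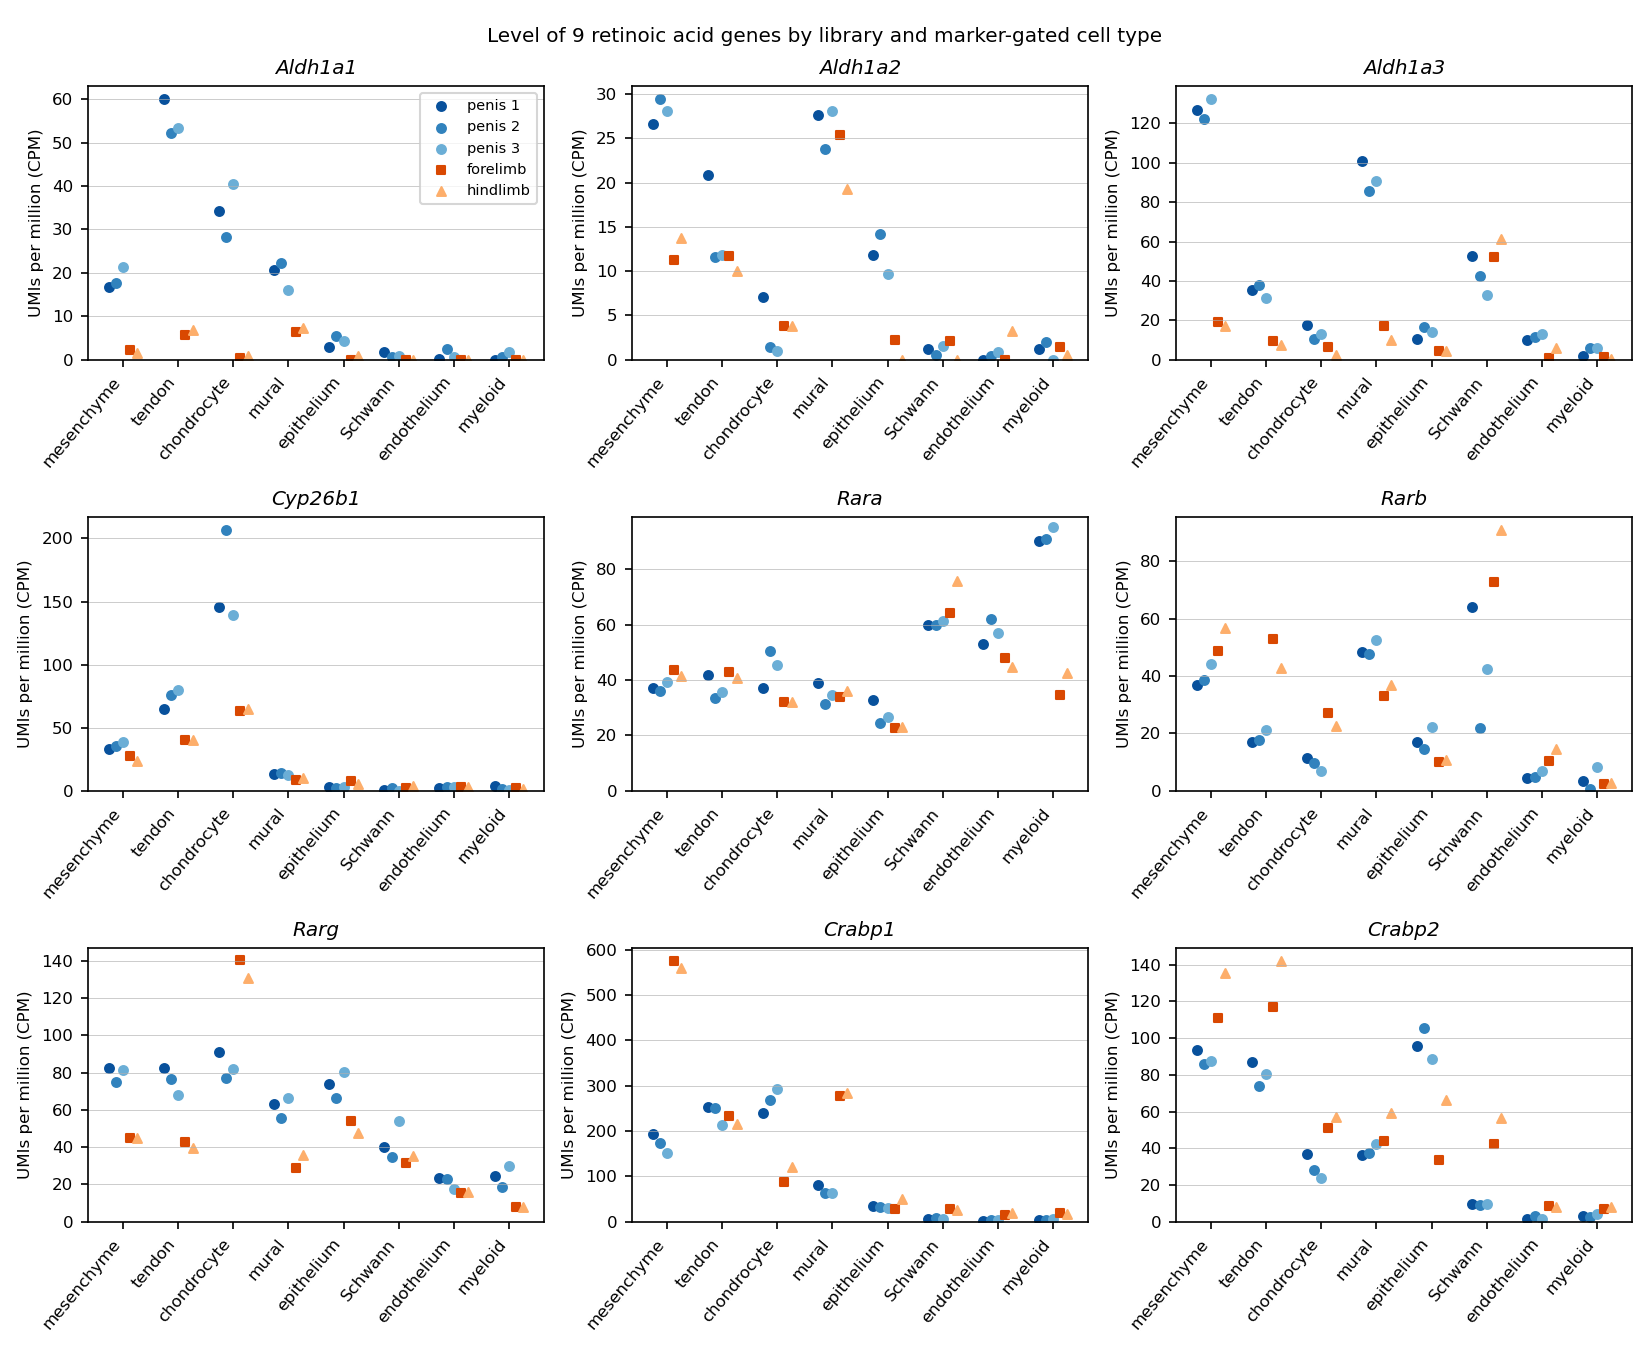
Level (CPM, linear axes from 0) of 9 of the 10 genes, with 1 point per library, in 8 marker-gated cell types. Circles are penis replicates, the square is the forelimb and the triangle the hindlimb. Aldh1a3 in mesenchyme sits between 122 and 132 CPM in penis and below 20 CPM in limb, while Crabp1 in mesenchyme is above 500 CPM in both limb libraries.

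Of the degrading enzymes, Cyp26b1 was found in all 5 libraries and Cyp26a1 hardly at all. Cyp26b1 was highest in chondrocyte-gated cells in both tissues, at 146, 207 and 139 CPM in penis, compared with 63.6 CPM in the forelimb and 65.1 CPM in the hindlimb. The groups did not overlap, and the log2 fold change was 1.38 ± 0.15 (SE, adjusted p = 9.1e-06). Tendon-gated cells came next in both tissues, at 64.6, 75.9 and 79.6 CPM in penis and 39.9 CPM in the forelimb and 40.4 CPM in the hindlimb. The log2 difference of 0.89 ± 0.13 (SE, adjusted p = 5.4e-05) fell short of the fold limit of 1. Mesenchyme was at 33.2, 35.3 and 38.6 CPM in penis and 27.5 CPM in the forelimb and 23.6 CPM in the hindlimb, a log2 difference of 0.45 ± 0.09 (SE, adjusted p = 0.0012), also under the limit. In penis, Cyp26b1 did not exceed 4 CPM in endothelium, epithelium, Schwann or myeloid cells. Cyp26a1 had 2, 2 and 1 UMIs in all cells of the penis libraries, compared with 33 among forelimb cells and 62 among hindlimb cells. Of the limb UMIs, 12 and 20 were in chondrocyte-gated cells. There, 7 of 1772 forelimb cells (0.395%, exact 95% binomial interval 0.159 to 0.812%) and 15 of 2392 hindlimb cells (0.627%, 0.351 to 1.03%) had a UMI. No chondrocyte-gated penis cell had one, but with 93 to 119 such cells per library that allows a share of up to 2.52 to 3.23% by a limit of 3 counts, or 3.05 to 3.89% as the upper end of the exact interval used for limb, so no difference was detectable at this depth. These intervals cover counting error only.

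The 3 receptors had different patterns over cell types. Rara was the most even. It ranged from 22.5 to 75.6 CPM over all types of both tissues except penis myeloid cells, where it was at 90.3, 90.8 and 95.2 CPM. Limb myeloid cells had 34.6 CPM in the forelimb and 42.3 CPM in the hindlimb, a log2 fold change of 1.29 ± 0.12 (SE, adjusted p = 5.7e-06). In penis, myeloid cells stood above mesenchyme by 1.63 ± 0.10 (SE, adjusted p = 3.0e-13) on the log2 scale. Rarg was also higher in penis myeloid cells, at 24.8, 18.4 and 30.1 CPM, compared with 7.98 CPM in the forelimb and 7.997 CPM in the hindlimb (log2 fold change 1.62 ± 0.22 SE, adjusted p = 9.6e-05). The gated myeloid cells of penis had summed myeloid markers of 13526 to 14858 CPM, compared with 6649 to 7221 CPM in limb, and the part of this in both differences was not tested.

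Rarg in limb was led by chondrocyte-gated cells, at 140.2 CPM in the forelimb and 131 CPM in the hindlimb, without overlap with any other type of at least 20 cells per library. In penis the chondrocyte-gated cells had 91.1, 77.3 and 82.1 CPM, which overlapped with mesenchyme at 82.5, 75.1 and 81.6 CPM. Mesenchyme in limb was at 44.8 CPM in the forelimb and 45.2 CPM in the hindlimb. The penis-limb differences of Rarg thus had opposite signs, 0.80 ± 0.06 (SE, adjusted p = 3.1e-06) in mesenchyme and -0.68 ± 0.11 (SE, adjusted p = 3.3e-04) in chondrocyte-gated cells, both under the fold limit of 1. The difference between these 2 effects was not tested. Limb muscle cells, absent from the penis libraries, had Rarg at 2.84 CPM in the forelimb and 2.98 CPM in the hindlimb.

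Rarb was lower in penis than in limb in tendon-gated cells, at 16.95, 17.6 and 21.2 CPM, compared with 53.0 CPM in the forelimb and 42.7 CPM in the hindlimb (log2 fold change -1.35 ± 0.16 SE, adjusted p = 1.2e-05). Chondrocyte-gated cells went the same way, at 11.4, 9.66 and 6.92 CPM, compared with 27.0 CPM in the forelimb and 22.5 CPM in the hindlimb (log2 fold change -1.35 ± 0.24 SE, adjusted p = 4.6e-04). Endothelium had low levels, and its log2 fold change of -1.29 ± 0.30 (SE, adjusted p = 0.0016) became -1.03 (adjusted p = 0.075) without the hindlimb library and -1.26 (adjusted p = 0.038) with DESeq2. In mesenchyme Rarb was at 37.1, 38.7 and 44.1 CPM in penis and 48.9 CPM in the forelimb and 56.9 CPM in the hindlimb, a difference of -0.43 ± 0.08 (SE, adjusted p = 0.0012), short of the fold limit. Schwann cells had the highest Rarb in limb, at 72.7 CPM in the forelimb and 91.0 CPM in the hindlimb, compared with 64.1, 21.8 and 42.3 CPM in penis. All 3 penis libraries were below both limb libraries, but the log2 difference of -0.91 ± 0.29 (SE, adjusted p = 0.019) did not pass. Few cells carried much of it in both tissues: in penis replicate 1 a single cell held 63 of the 108 UMIs, in the hindlimb 3 of 108 cells held 46.8% and in the forelimb 1 cell held 19.4%.

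Crabp1 differed between the tissues in level and in how it was spread over cells. In mesenchyme it was at 194, 174 and 151 CPM in penis, compared with 575 CPM in the forelimb and 559.5 CPM in the hindlimb, a log2 fold change of -1.74 ± 0.10 (SE, adjusted p = 8.8e-07). In penis, the highest 5% of mesenchyme cells held 68.3, 65.4 and 65.1% of its UMIs, compared with 31.9% for forelimb and 27.9% for hindlimb. The share of mesenchyme cells with a UMI was 34.3, 34.0 and 31.4% in penis, compared with 66.0% for forelimb and 69.5% for hindlimb. At 2000 UMIs per cell these shares were 14.9, 14.8 and 13.7% in penis, compared with 46.0% for forelimb and 48.3% for hindlimb. Penis mesenchyme thus held fewer cells with Crabp1. Cells with at least 10 UMIs of it were also rarer, at 4.57, 3.97 and 3.14% in penis, compared with 11.4% for forelimb and 12.6% for hindlimb. The mean over cells with a UMI overlapped between the tissues, at 6.06, 5.24 and 4.59 UMIs in penis, compared with 5.58 for forelimb and 5.72 for hindlimb. The single highest cell had 215, 126 and 142 UMIs in the penis libraries, compared with 90.0 for forelimb and 89.0 for hindlimb. Penis cells were the deeper ones. As a background, the thinned share in limb myeloid cells was 3.92% for forelimb and 3.63% for hindlimb.

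**Figure D2:**
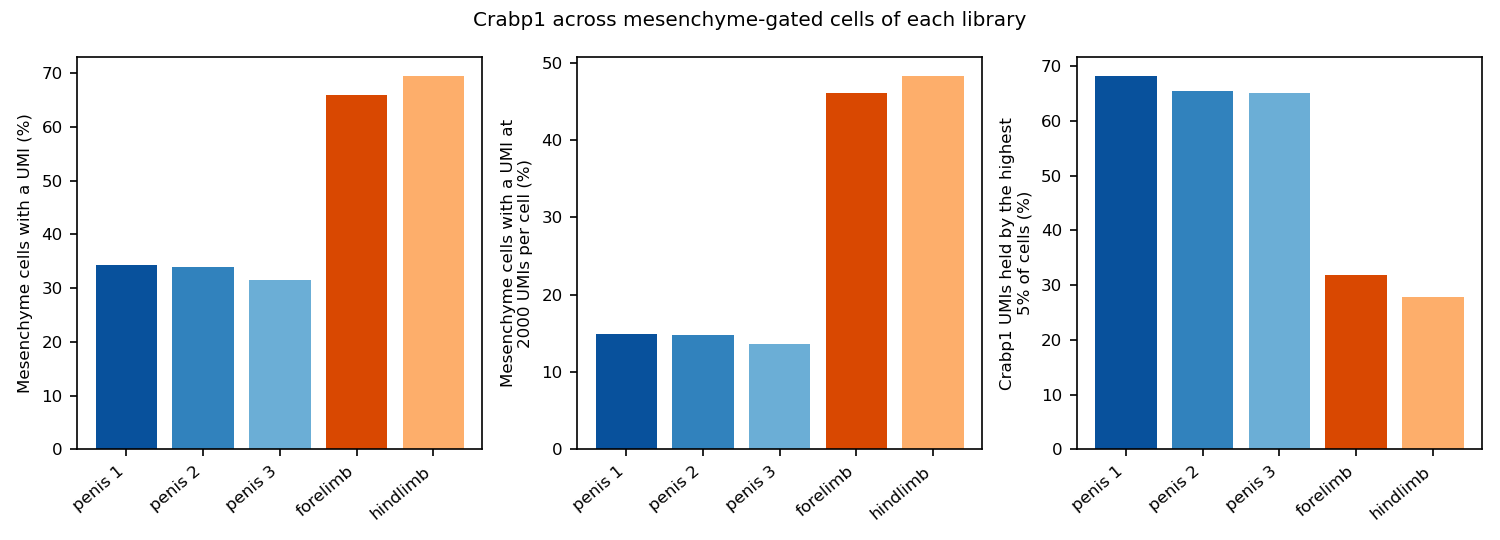
Crabp1 in mesenchyme-gated cells, with 1 bar per library: the share of cells with a UMI, the same share thinned to 2000 UMIs per cell, and the share of all Crabp1 UMIs held by the highest 5% of cells (%). Penis libraries have the lower bars on the first 2 measures and the higher bars, 65.1 to 68.3%, on the last.

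The other connective tissue gates differed in the sign of the Crabp1 difference. Mural-gated cells were lower in penis, as mesenchyme was, at 81.3, 62.8 and 62.3 CPM, compared with 276 CPM in the forelimb and 284 CPM in the hindlimb (log2 fold change -2.08 ± 0.12 SE, adjusted p = 7.5e-08). In chondrocyte-gated cells it was higher in penis, at 239.8, 268 and 292 CPM, compared with 87.7 CPM in the forelimb and 121 CPM in the hindlimb (log2 fold change 1.36 ± 0.14 SE, adjusted p = 3.1e-06). A UMI of it was found in 43, 40 and 30 of these penis cells (36.1, 36.0 and 32.3%), compared with 15.5% of forelimb and 22.6% of hindlimb cells. These shares were not thinned, and penis cells were the deeper ones. The highest 5% of cells held 56.7, 53.1 and 54.2% of the UMIs in penis, compared with 75.0% for forelimb and 66.3% for hindlimb. In tendon-gated cells the libraries overlapped, at 253, 251 and 212 CPM and 234 CPM in the forelimb and 216 CPM in the hindlimb, a difference of 0.12 ± 0.09 (SE, adjusted p = 0.33). Endothelium, myeloid cells and limb muscle had a like low level of Crabp1 in limb, 15.2 to 19.2 CPM, compared with 2.01 to 6.68 CPM in the endothelium and myeloid cells of penis. Such a level, shared by unrelated types, is taken here as background. It is not read as expression, although the penis-limb differences there (-2.54 and -1.85 on the log2 scale) passed the test. RNA outside cells was not measured, so this reading was not tested.

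Crabp2, the binding protein known to pass retinoic acid to the receptors, was more even over mesenchyme, tendon-gated cells and epithelium. In penis epithelium it was at 95.8, 105 and 88.5 CPM, which overlapped with penis mesenchyme at 93.4, 85.9 and 87.4 CPM. Limb epithelium had 33.7 CPM in the forelimb and 66.3 CPM in the hindlimb, and limb mesenchyme 111 CPM in the forelimb and 136 CPM in the hindlimb. The penis-limb difference was 0.91 ± 0.21 (SE, adjusted p = 0.0029) in epithelium and -0.50 ± 0.08 (SE, adjusted p = 4.8e-04) in mesenchyme, both under the fold limit. Schwann cells were lower in penis, at 9.49, 8.94 and 9.40 CPM, compared with 42.3 CPM in the forelimb and 56.7 CPM in the hindlimb, a log2 fold change of -2.36 ± 0.26 (SE, adjusted p = 1.5e-06). Limb Schwann cells stood well above the limb endothelium and myeloid cells, which had 7.14 to 8.62 CPM. Endothelial Crabp2 was called lower in penis (adjusted p = 5.6e-04), at levels near background, and no longer passed without the forelimb (-1.93, adjusted p = 0.02) or the hindlimb (-2.06, adjusted p = 0.015), or with DESeq2 (-2.003, adjusted p = 0.012). Limb muscle had 59.3 CPM in the forelimb and 70.8 CPM in the hindlimb.

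Counted over the members, a gene was called when its adjusted p was under 0.01 and its log2 fold change beyond 1 in either direction. In mesenchyme, 9 members passed the filter on low counts, 3 were higher in penis (Aldh1a1, Aldh1a2 and Aldh1a3) and 1 was lower (Crabp1), compared with 25.4% of all 19985 genes tested. The members' median log2 difference was 0.45, compared with 0.01 over all genes. In tendon-gated cells 9 were tested, and Aldh1a1 and Aldh1a3 were higher and Rarb lower, compared with 15.7% of all 12963 genes tested. In chondrocyte-gated cells 8 were tested, and Aldh1a1, Aldh1a3, Crabp1 and Cyp26b1 were higher and Rarb lower, compared with 17.4% of all 11218 genes tested. Aldh1a1 and Aldh1a3 passed the filter on low counts there only through penis, where they were higher. Aldh1a3 there rests on 17.8, 10.4 and 12.9 CPM and 6.36 CPM in the forelimb and 2.39 CPM in the hindlimb. Its log2 fold change of 1.75 ± 0.44 (SE, adjusted p = 0.0052) did not pass without penis replicate 1 (1.47, adjusted p = 0.043), penis replicate 2 (1.90, adjusted p = 0.012), penis replicate 3 (1.79, adjusted p = 0.016) or the hindlimb (1.10, adjusted p = 0.032), nor with DESeq2 (1.65, adjusted p = 0.011) or a stricter gate (1.53, adjusted p = 0.052). In mural-gated cells 9 were tested, and Aldh1a1 and Aldh1a3 were higher and Crabp1 lower, compared with 16% of all 13502 genes tested. When mural-gated cells that also passed the mesenchyme gate were left out, Aldh1a3 was at 1.51 (adjusted p = 0.13) and no longer passed, while Crabp1 was at -2.29 (adjusted p = 4.8e-06). The 2160 calls over all genes fell by more than 1.5 times in that setting, to the count given in the closing section. Aldh1a1 was filtered for low counts in that setting, with 6, 3 and 7 UMIs in penis and 1 and 0 in limb. With a stricter mural gate Aldh1a1 was at 1.36 (adjusted p = 0.017) and no longer passed.

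The remaining types were epithelium, endothelium, Schwann and myeloid cells. In epithelium 8 were tested. Aldh1a2, which passed the filter on low counts only through penis, was the only one called, compared with 11.8% of all 11988 genes tested. Aldh1a3 missed the threshold there at 1.62 ± 0.44 (SE, adjusted p = 0.01). In endothelium 7 were tested, and Aldh1a3 was higher and Crabp1, Crabp2 and Rarb were lower, compared with 13.2% of all 12883 genes tested. Limb alone would not have brought Aldh1a3 past the filter on low counts, nor penis alone Crabp2. The Crabp1 and Crabp2 calls are at or near the background level and are not read as a change in expression. Endothelial Aldh1a3 was at 10.3, 11.7 and 13.2 CPM and 0.862 CPM in the forelimb and 6.03 CPM in the hindlimb, with a log2 fold change of 1.67 ± 0.41 (SE, adjusted p = 0.0027). Without the forelimb it was 0.92 (adjusted p = 0.063), without penis replicate 3 1.60 (adjusted p = 0.011) and with DESeq2 1.72 (adjusted p = 0.016), none of which passed. In Schwann cells 6 were tested, and Crabp1 and Crabp2 were lower, compared with 15.8% of all 10510 genes tested. Schwann Crabp1 was at 5.93, 7.82 and 6.27 CPM in penis, about the level of penis endothelium and myeloid cells. In limb it was at 27.1 CPM in the forelimb and 26.0 CPM in the hindlimb, above the level taken as background without overlap. That call too is not read as a change in expression, and the part of background in it was not tested. In myeloid cells 4 were tested, and Rara and Rarg were higher and Crabp1, at background, lower, compared with 19.6% of all 10679 genes tested. Osteoblast-gated cells were not tested, since the hindlimb held 17. The 3 enzymes were higher in penis in each of these comparisons that called them. Some of these calls, named above, passed the filter on low counts only through penis, where the gene was higher. Schwann Aldh1a3, not called, was at -0.35. Aldh1a3 of penis overlapped between chondrocyte-gated cells, endothelium and epithelium, at 10.3 to 17.8 CPM, compared with 122 to 132 CPM in penis mesenchyme. The part of background in the Aldh1a3 differences at that low level was not tested.

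**Figure D3:**
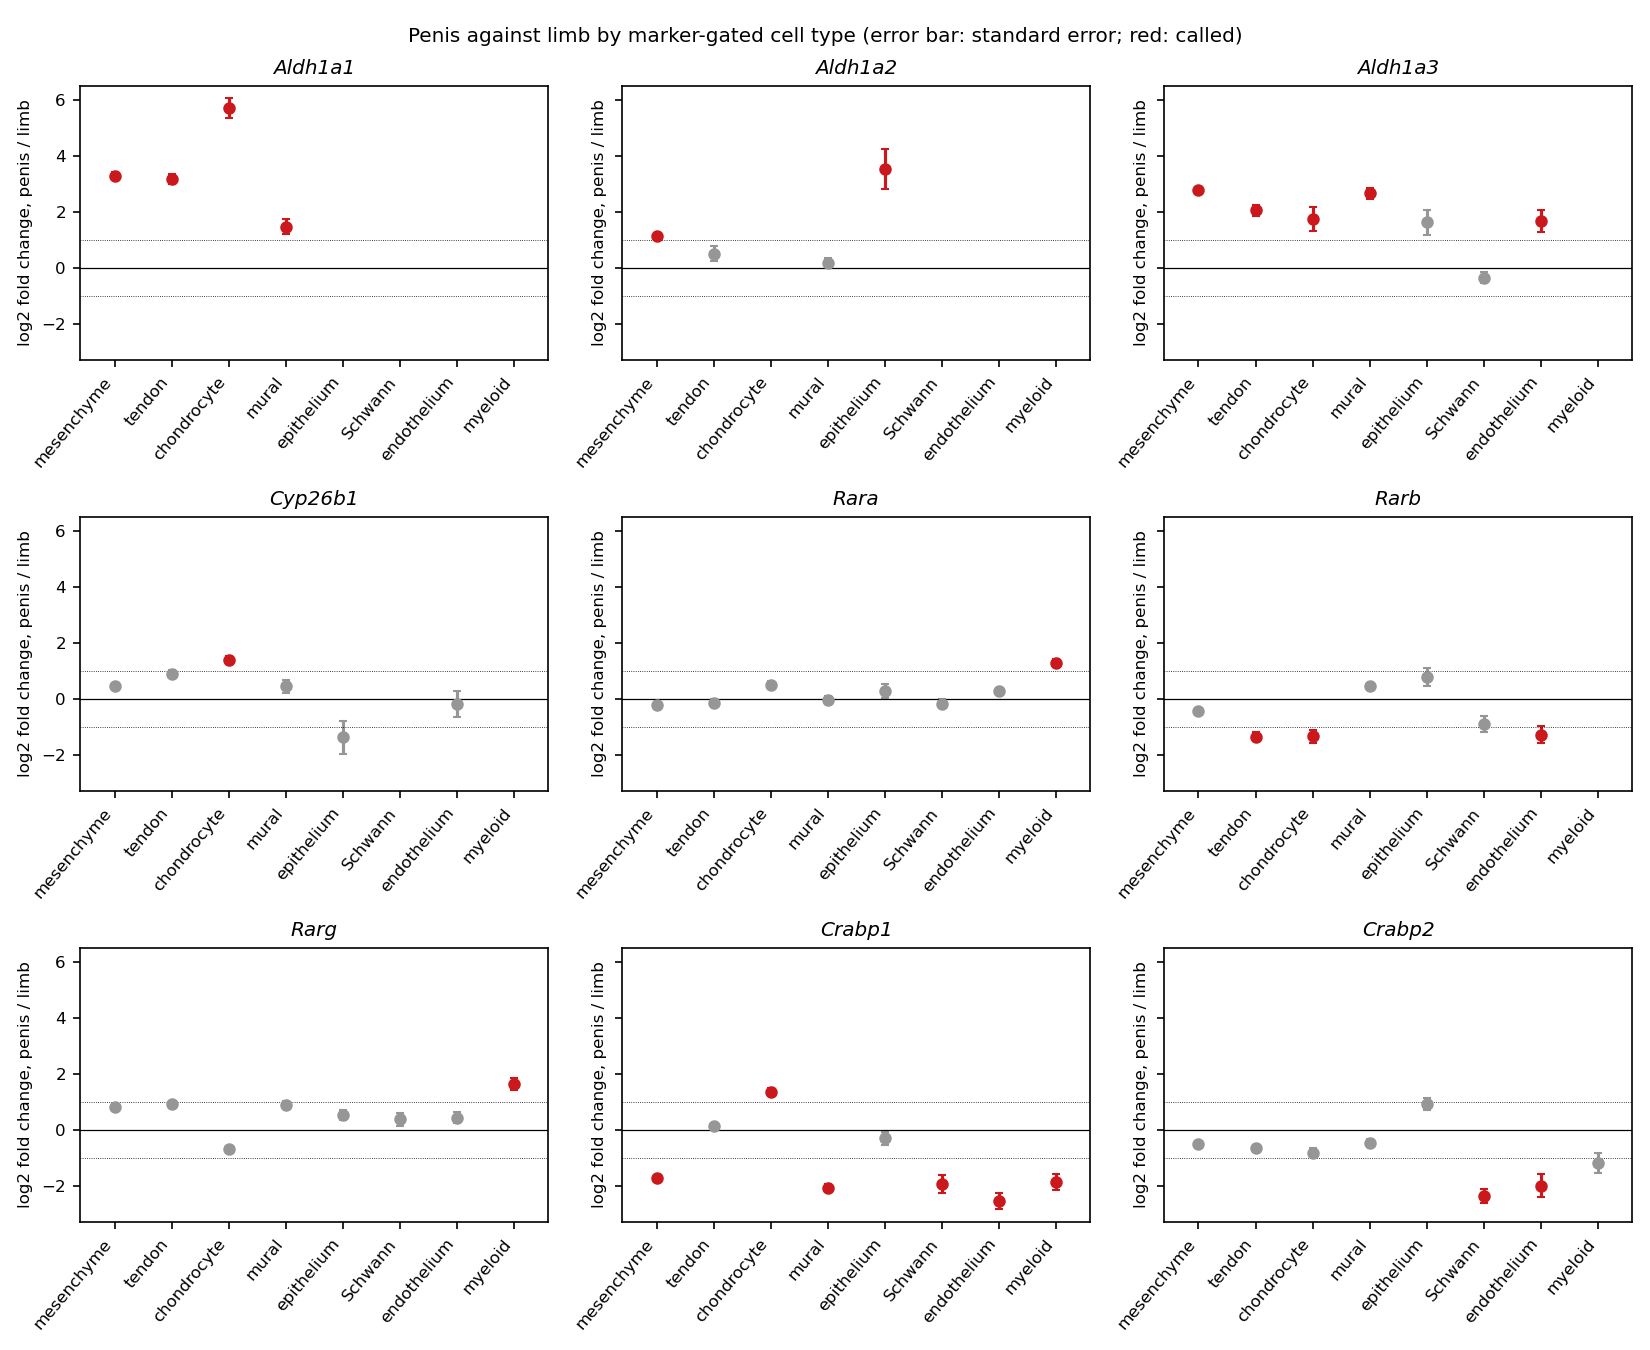
Log2 fold change, penis over limb, of 9 genes in 8 cell types, with standard errors derived from edgeR's F statistic (3 penis and 2 limb libraries). Red points were called, grey points were tested and not called, and a missing point was filtered for low counts. Dotted lines mark a log2 fold change of 1 in either direction. The points of Aldh1a1 lie between 1.47 and 5.70, and those of Crabp1 between -2.54 and 1.36.

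Within penis, each type was compared with mesenchyme of the same libraries. Endothelium, the lining of vessels, had 8 of 9 members lower, all except Rara, compared with 32.5% of all 15325 genes tested called in either direction. Crabp1 differed by -5.79, Crabp2 by -5.33 and Aldh1a3 by -3.40 on the log2 scale. Rara stood 0.67 ± 0.08 (SE, adjusted p = 1.7e-07) above mesenchyme, under the fold limit. Myeloid cells had 8 of 9 members lower and Rara higher, compared with 45.6% of all 15325 genes tested. Schwann cells had 6 of 9 lower, compared with 27.5% of all 15325 genes tested, and the 3 receptors were the ones not called: Rara at 0.73 ± 0.10 (SE, adjusted p = 1.9e-06), Rarb at 0.13 ± 0.19 (SE, adjusted p = 0.57) and Rarg at -0.87 ± 0.12 (SE, adjusted p = 7.0e-07). Epithelium had 4 of 9 lower, Aldh1a1, Aldh1a3, Crabp1 and Cyp26b1, compared with 34.5% of all 15325 genes tested. There Crabp2 was 0.35 ± 0.08 (SE, adjusted p = 6.8e-04), Rarg 0.11 ± 0.09 (SE, adjusted p = 0.29) and Aldh1a2 -0.98 ± 0.16 (SE, adjusted p = 1.2e-05) relative to mesenchyme, none of them called. Mural-gated cells had 3 of 9 lower, compared with 4.1% of all 15325 genes tested: Crabp1 at -1.34, Crabp2 at -1.22 and Cyp26b1 at -1.42. Without the mesenchyme-gated cells among them, Crabp1 was at -2.21 (adjusted p = 1.2e-11), Crabp2 at -4.54 (adjusted p = 3.6e-12) and Cyp26b1 at -1.56 (adjusted p = 1.6e-04). Over all genes, calls then went from 628 to 1768, and to 1369 with a stricter gate.

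Penis mesenchyme was split 3 ways by a UMI of marker genes. Pi16 or Clec3b, markers of a widespread fibroblast state, were found in 27.0 to 29.2% of mesenchyme cells. Angpt2 or Ccl19 were found in 41.0 to 43.3%, and Srd5a2, which makes dihydrotestosterone, or Sim1, a transcription factor, in 51.5 to 55.0%. A cell can be in more than 1 subset, and cells with a marker UMI were deeper, for Pi16 or Clec3b at a median of 10130 to 11185 UMIs, compared with 8877 to 10119 in the rest. The part of depth in the differences was not tested. Crabp1 was called in all 3 splits, higher in 1 and lower in 2. In Srd5a2 or Sim1 cells it was at 256, 235 and 210.0 CPM, compared with 115, 93.3 and 83.9 CPM in the other mesenchyme cells (log2 fold change 1.27 ± 0.03 SE, adjusted p = 2.8e-16). No other member was called there, compared with 1.81% of all 17022 genes tested. In Angpt2 or Ccl19 cells Crabp1 was at 98.9, 91.2 and 83.7 CPM, compared with 277, 239.6 and 205 CPM in the other mesenchyme cells (log2 fold change -1.47 ± 0.03 SE, adjusted p = 1.0e-18). It was again the only member called of 9, compared with 10.6% of all 17160 genes tested. Aldh1a3 went the other way in those cells, at 173, 167 and 174 CPM, compared with 87.2, 87.6 and 99.7 CPM in the other mesenchyme cells. All 3 libraries were higher, but the difference of 0.84 ± 0.03 (SE, adjusted p = 2.1e-14) was under the fold limit.

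Pi16 or Clec3b cells of penis had 3 members called of 9, compared with 6.32% of all 16955 genes tested. Crabp1 was lower, at 96.6, 81.3 and 63.6 CPM, compared with 239.6, 214 and 189 CPM in the other mesenchyme cells (log2 fold change -1.32 ± 0.04 SE, adjusted p = 1.3e-19). Cyp26b1 was lower, at 17.1, 13.1 and 16.1 CPM, compared with 40.7, 44.9 and 48.3 CPM in the other mesenchyme cells (log2 fold change -1.43 ± 0.08 SE, adjusted p = 3.4e-14). Aldh1a1 was higher, at 24.4, 25.4 and 33.5 CPM, compared with 13.3, 14.4 and 16.02 CPM in the other mesenchyme cells. Its log2 fold change of 1.00 ± 0.07 (SE, adjusted p = 1.7e-11) sat at the fold limit and fell short of it without penis replicate 3 (0.93, adjusted p = 2.5e-23), with a stricter gate (0.82, adjusted p = 4.5e-10), with no filter on low counts (0.99, adjusted p = 9.4e-38) or with all deposited barcodes (0.97, adjusted p = 7.6e-09). In each of the 3 libraries these cells thus had more Aldh1a1 and less Cyp26b1 than the rest. No receptor was called in the 3 splits. Rarb differed by -0.32 ± 0.05 (SE, adjusted p = 3.5e-05) in Srd5a2 or Sim1 cells, and by 0.27 ± 0.05 (SE, adjusted p = 1.8e-04) in Pi16 or Clec3b cells and 0.24 ± 0.05 (SE, adjusted p = 2.5e-04) in Angpt2 or Ccl19 cells, all under the fold limit. Rara and Rarg lay between -0.17 and 0.12.

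In limb, mesenchyme cells with Hoxa13, a gene of the hand and foot plate, were compared with those with Hoxa11, a gene of the segment above it, and no Hoxa13. Cyp26b1 was higher in the Hoxa13 cells, at 69.9 CPM in the forelimb and 42.5 CPM in the hindlimb, compared with 21.6 and 14.4 CPM in the Hoxa11 cells (log2 fold change 1.59 ± 0.10 SE, adjusted p = 2.8e-06). Crabp1 was lower, at 295 CPM in the forelimb and 377 CPM in the hindlimb, compared with 648 and 660.3 CPM in the Hoxa11 cells (log2 fold change -1.01 ± 0.07 SE, adjusted p = 3.6e-06). These were the 2 members called of 9, compared with 1.67% of all 15450 genes tested. The 258 calls behind that share were 117 with DESeq2 and 51 without the library block. Without the block Cyp26b1 was at 1.61 (adjusted p = 0.028) and no longer passed. Crabp1 sat at the fold limit and fell short of it with a stricter gate (-0.95, adjusted p = 3.1e-04), no filter on low counts (-0.99, adjusted p = 1.4e-84) or all deposited barcodes (-0.997, adjusted p = 1.5e-07). Mesenchyme cells with Lhx2 or Lhx9, genes of distal limb progenitors, made up 12.7% and 12.1% of the forelimb and hindlimb mesenchyme. Cyp26b1 was higher in them too, at 74.5 CPM in the forelimb and 56.3 CPM in the hindlimb, compared with 20.3 and 18.6 CPM in the other mesenchyme cells (log2 fold change 1.69 ± 0.07 SE, adjusted p = 5.5e-21). Cyp26a1 was called higher (log2 fold change 2.82 ± 0.59 SE, adjusted p = 1.9e-04), on 4 and 10 UMIs in these cells and 4 and 8 UMIs in the rest, and no longer passed without the library block (2.82, adjusted p = 0.048) or without the filter on low counts (2.80, adjusted p = 0.014). Aldh1a1 was called lower (-1.92 ± 0.41 SE, adjusted p = 2.7e-04), at 0.568 CPM in the forelimb and 0.556 CPM in the hindlimb, compared with 2.37 and 1.75 CPM in the other mesenchyme cells. Without the block Aldh1a1 was at -1.93 (adjusted p = 0.032) and no longer passed. These were 3 of 10 members, compared with 3.2% of all 19009 genes tested. Of the 3, Cyp26a1 passed the filter on low counts only through the Lhx2 or Lhx9 cells, where it was higher. The 608 calls behind it were 313 with DESeq2 and 135 without the block. Rarg was 0.82 ± 0.06 (SE, adjusted p = 5.9e-14) and Crabp1 -0.88 ± 0.04 (SE, adjusted p = 3.8e-20) there, both under the fold limit. With 2 libraries, each comparison rests on both and could not be repeated without 1 of them.

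**Figure D4:**
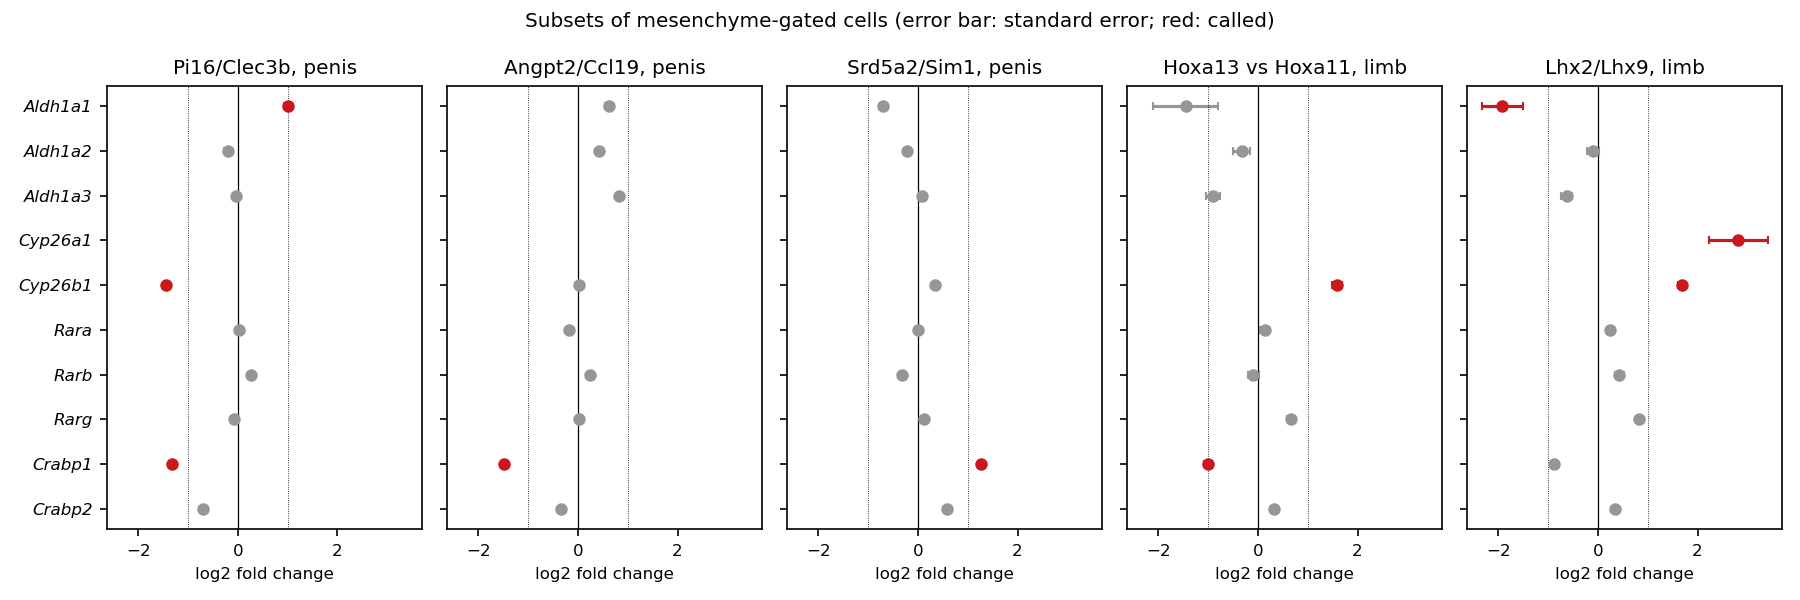
Log2 fold change of the 10 genes in 5 subsets of mesenchyme-gated cells, with standard errors derived from edgeR's F statistic, for 3 penis libraries (first 3 panels, each subset against the other mesenchyme cells) and 2 limb libraries. Red points were called, and a missing point was filtered for low counts. Crabp1 is at -1.32, -1.47 and 1.27 in the penis panels, and Cyp26b1 at 1.59 and 1.69 in the limb panels.

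Whether the penis-limb difference itself changed between cell types was tested for epithelium and endothelium against mesenchyme. Both types came from the same 5 libraries, and the fit held the library as a block. In epithelium 3 of 9 members were called, compared with 8.65% of all 19026 genes tested: Crabp2 by 1.48 ± 0.18 (SE, adjusted p = 4.1e-10), Crabp1 by 1.47 ± 0.19 (SE, adjusted p = 5.9e-09) and Rarb by 1.26 ± 0.32 (SE, adjusted p = 0.0019). For all 3, penis stood higher relative to limb in epithelium than it did in mesenchyme, as a signed shift: for Crabp1 the penis-limb difference was -0.31 ± 0.23 (SE, adjusted p = 0.36) in epithelium, not called, and -1.74 in mesenchyme. Crabp1 epithelium was at 35.0, 32.0 and 30.3 CPM in penis and 28.1 CPM in the forelimb and 50.4 CPM in the hindlimb. The forelimb value is near that of limb Schwann cells, not far above limb background. The level taken as background was 15.2 to 19.2 CPM in limb and 2.01 to 6.68 CPM in penis, and its part in the shift was not tested. Since the epithelial difference itself was not called, the Crabp1 shift is not read as a change in expression in epithelium. The Rarb difference did not pass without the forelimb (1.33, adjusted p = 0.016) or without the hindlimb (1.19, adjusted p = 0.079), nor with DESeq2 (1.19, adjusted p = 0.021) or a stricter gate (0.88, adjusted p = 0.024). In endothelium Crabp2 was called of 9, at -1.49 ± 0.37 (SE, adjusted p = 0.0092), compared with 8.04% of all 18925 genes tested, on endothelial levels near background that are not read as a change in expression. It did not pass without penis replicate 1 (-1.18, adjusted p = 0.043), penis replicate 3 (-1.36, adjusted p = 0.023), the forelimb (-1.23, adjusted p = 0.096) or the hindlimb (-1.70, adjusted p = 0.028), nor with DESeq2 (-1.53, adjusted p = 0.023) or a stricter gate (-1.13, adjusted p = 0.022).

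Other genes of the pathway were taken as 3 lists. Levels of these genes were not taken, and repeats under other settings were tallied for the members only, so ratios near the floor are not marked. Of 14 genes of retinoid handling, which carry, take up, store or oxidize retinoids, 12 were tested in mesenchyme, and 2 were higher and 2 lower in penis. Of all 19985 genes tested there, 25.4% were called, and the counts of retinoid handling genes and of cofactors are not far from that share. Stra6, the receptor that takes up retinol, was at a log2 fold change of 1.54 and Lrat, which stores retinol as esters, at 1.59. Rbp4, the carrier of retinol in plasma, was at -1.29 and Fabp5, a fatty acid binding protein, at -1.16. Rdh10, which makes the retinaldehyde that the ALDH1A enzymes use, was at -0.25 and was not called. Of the 10 receptor partners and cofactors, 10 were tested, 1 was higher (Nrip1, 1.41) and 2 were lower (Rxrg, -3.56, and Ppard, -1.20). Rxra, the main RXR of most tissues, was at 0.12. Of 11 genes reported as targets of retinoic acid, 8 were tested, and Tgm2, a transglutaminase, Rarres2, a chemoattractant, and Nr2f1, a nuclear receptor, were higher, with Tgm2 at 2.38. Nr2f2, the paralog of Nr2f1, was lower. The medians of the 3 lists were -0.17, -0.03 and 0.66, compared with 0.01 over all genes.

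In the other connective tissue gates the target list held 4 higher and 1 lower of 8 in tendon-gated cells and 4 higher of 8 in chondrocyte-gated cells. Of all genes tested, 15.7% were called in tendon-gated and 17.4% in chondrocyte-gated cells. Nr2f1 was called in both, at 2.46 and 4.36, and so was Meis1, a homeobox gene, at 1.43 and 1.28. Tgm2 was at 2.58 in tendon-gated cells and was not called in chondrocyte-gated cells, at 0.35. Of the cofactors none was called in either gate. Within penis mesenchyme, the Angpt2 or Ccl19 cells had 6 of 12 retinoid handling genes lower and none higher, compared with 10.6% of all 17160 genes tested. Adh7, an alcohol dehydrogenase that acts on retinol, was at -2.08, Lrat at -1.92 and Stra6 at -1.68. The Srd5a2 or Sim1 cells had 3 of 12 higher and none lower, compared with 1.81% of all 17022 genes tested. The 3 were Adh7 at 2.64, Stra6 at 1.37 and Adh1 at 1.10. In the limb, the Hoxa13 cells had 2 of 10 retinoid handling genes higher, Rdh10 at 1.09 and Stra6 at 1.38, and 1 lower, Rbp4 at -1.17. Of all 15450 genes tested, 1.67% were called there. The Lhx2 or Lhx9 cells had 3 of 11 higher, Rdh10 at 1.21, Stra6 at 1.08 and Dhrs3, which reduces retinaldehyde, at 1.01, and 2 lower, Adh1 at -1.12 and Rbp4 at -1.19. For these cells 3.2% of all 19009 genes tested were called. Meis1 of the target list was lower in both limb subsets, at -1.21 and -1.10.

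The genes most like each member were found over 46 sums of a library and cell type, among 19713 genes with at least 100 UMIs, by Pearson's r of log2(CPM + 1). These sums share libraries, depth and the contrast of connective tissue with other types, so r is given as a description. For the synthesizing enzymes they were Spon2 (r = 0.94), Ltbp2 (r = 0.91), Zfp804b (r = 0.91) for Aldh1a1, Dpep1 (r = 0.89), Dcn (r = 0.86), Dpt (r = 0.86) for Aldh1a2 and Hey2 (r = 0.87), Ppp2r2b (r = 0.87), Lrrtm4 (r = 0.87) for Aldh1a3. For Cyp26b1 they were Bmp5 (r = 0.94), Col8a2 (r = 0.93), Col24a1 (r = 0.93). For the receptors they were Rap1a (r = 0.81), Cerkl (r = 0.81), Rap1gds1 (r = 0.80) for Rara, Pcdh9 (r = 0.86), Rbms3 (r = 0.85), Ctxn1 (r = 0.85) for Rarb and Tnrc18 (r = 0.88), Lgalsl (r = 0.85), Ttc39c (r = 0.82) for Rarg. For the binding proteins they were Tbx18 (r = 0.93), Penk (r = 0.91), Sulf1 (r = 0.90) for Crabp1 and Enox1 (r = 0.90), Grip1 (r = 0.90), Gpc3 (r = 0.90) for Crabp2. Dcn, next to Aldh1a2, was itself a marker of the mesenchyme gate. Cyp26a1 had fewer than 100 UMIs in these sums and was left out.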

How the data were processed

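Droplet single-cell RNA libraries (10x 3′ v3.1) were analysed from the filtered UMI count matrices that the authors deposited, made with Cell Ranger 7.0.0 on mm10. Whether intronic reads were counted is not given in the sources used here. The study's limits on cells were applied, read here as genes per cell: 500 to 6000 in penis, 100 to 9000 in forelimb and 100 to 9500 in hindlimb, with at most 5% (penis) or 10% (limb) mitochondrial UMIs and a ratio of log10 genes to log10 UMIs of at least 0.8. Cells were gated by marker genes, without clustering. No doublet caller was run, and cells passing incompatible gates were left out. UMIs were summed per library and type, from at least 20 cells, and tested in edgeR 4.0.16 (TMM, quasi-likelihood, Benjamini-Hochberg over all genes tested); comparisons between cell types or subsets, and the interactions of tissue and type, had the library as a block. Forelimb and hindlimb formed 1 limb group. The filter on low counts keeps a gene with enough counts in as many sums as the smallest group holds. A gene can thus pass through 1 group alone. A gene was called at an adjusted p under 0.01 and a log2 fold change beyond 1. The text names all 10 members and the 3 genes most like each member. It gives values for at most 8 called genes of the pathway lists per comparison. Rxra, Rdh10, Tgm2 in chondrocyte-gated cells, Dcn and other markers of the mesenchyme gate were named after their values were seen. On counts simulated for the mesenchyme comparison over 19985 genes, edgeR recovered 195 of 200 changed genes. Alternatives were RLE size factors, DESeq2 1.42.0, no low-count filter, a stricter gate, all deposited barcodes, no block, each library left out and thinning to 2000 UMIs. Members and lists were chosen with earlier results of these data known.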

Additional observations from a re-analysis of the deposited data

Results flagged for a closer look

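For 4 results the penis-limb difference passed the test of a difference between 2 cell types, by an interaction term fitted in edgeR across all genes with the library as a block. As a signed shift from mesenchyme, the log2 penis-limb difference in epithelium was 1.48 for Crabp2, 1.47 for Crabp1 and 1.26 for Rarb. The Crabp1 difference itself was -0.31 in epithelium, not called, and -1.74 in mesenchyme. The shift in endothelium was -1.49 for Crabp2. The Crabp1 and Crabp2 differences in epithelium passed the test without each library in turn, while those of Rarb in epithelium and Crabp2 in endothelium did not, nor did they with DESeq2 or a stricter gate. Epithelial Crabp1 was at 28.1 CPM in the forelimb, not far above the limb background of 15.2 to 19.2 CPM, and the part of background in its shift was not tested. Endothelial Crabp2 was at 1.34 to 3.28 CPM in penis and 8.04 to 8.62 CPM in limb, near background. The endothelial Crabp2 shift is not read as a change in expression. Neither is the Crabp1 shift read so in epithelium, where the difference itself was not called.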

How the results depend on the processing

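Over 69 called results of members there were 638 repeats under another setting, of which 599 kept direction and call, 39 kept direction and no longer passed, and none turned direction. With RLE size factors 69 of 69 passed. Calls lost were 7 of 67 with DESeq2, 6 with a stricter gate, 3 with no low-count filter, 3 with no replicate block 2 with all deposited barcodes, 1 for mural-gated cells without the mesenchyme gate, 6 of 29 without the hindlimb, 4 of 29 without the forelimb, and 2, 1 and 4 without penis replicates 1, 2 and 3, each named beside its result. Of 186 repeats of the 20 counts of called genes, 178 stayed within 1.5 times. The others were as follows. Mural-gated cells without the mesenchyme gate, a setting chosen after seeing the data, gave 783 called genes between penis and limb, compared with 2160, and 1768 between mural-gated cells and mesenchyme of penis, compared with 628. A stricter gate gave 1339 in myeloid cells between penis and limb, compared with 2092, and 1369 for mural-gated cells against penis mesenchyme. For Hoxa13 against Hoxa11 cells, DESeq2 gave 117 and the fit with no replicate block 51, compared with 258. For Lhx2 or Lhx9 cells, DESeq2 gave 313 and the fit with no replicate block 135, compared with 608. The causes were not tested. The limb subset comparisons were not repeated without a library, since 1 library leaves no residual degrees of freedom. Limb rests on 2 libraries, rare types on few cells, and Cyp26a1 on few UMIs.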
